A study of Homo sapiens with 9 samples.

Results

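The replication-dependent histone genes were followed across 3 sets of HCN-2 cells, given a mimic of miR-140-3p, one of miR-126-5p or the scrambled control. They were taken by symbol from the deposited expression table, as rows with exactly 1 gene symbol of the HIST or H1, H2AC, H2BC, H3C and H4C type, without pseudogenes. The rule gave 62 rows for 59 genes, out of 36176 rows for 33613 genes with 1 symbol. By class these were 8 rows for the linker histone H1, 12 for H2A, 18 for H2B, 10 for H3 and 14 for H4. On the genome, 52 rows belonged to chromosome 6, 8 to chromosome 1, 1 to chromosome 3 and 1 to chromosome 12. Each set had 3 microarrays of total RNA from cells harvested 24 h after transfection, so there were 9 arrays in all. Every set received 3 µL of a 20 µM mimic stock with the HiPerFect transfection reagent. HCN-2 is an established human cortical neuronal line. The labels set the 3 sets apart only by the mimic and give no inducing agent. The study measured these sets to learn which genes lay behind the differentiation of the cells after transfection with the mimics.

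Histones wrap DNA into nucleosomes, with H2A, H2B, H3 and H4 in the core and H1 on the linker. The replication-dependent genes make most of this protein while DNA is being copied, and they are known for lying in clusters, lacking introns and ending their mRNA in a stem-loop instead of a poly(A) tail. Transcription is driven through NPAT after phosphorylation by cyclin E and CDK2, the factor HINFP acts at H4 genes, and SLBP binds the stem-loop. Some of these genes, among them H2BC21, H2BC12, H2BC5 and H2AC6, are also known to give polyadenylated mRNA in cells that divide little. Because members of a class have near-identical coding sequences, the probes of 1 row may also capture RNA of its relatives, which was not tested.

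The mimics differ in their seeds, the bases 2 to 8 by which a miRNA pairs with its targets, which are in capitals in the RefSeq mature sequences (GRCh38.p14, chromosomes 16 and 9), written as RNA.
miR-140-3p: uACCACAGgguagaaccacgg
miR-126-5p: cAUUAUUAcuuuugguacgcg

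Histone promoters are compact, and the 100 bases before the RefSeq start are shown for genes to which the results below return, an H3, a pair of H2B, an H2A, an H1 and a pair of H4 genes. Capitals mark matches on either strand to TATAAA (the TATA box), CCAAT (the CAAT box), ATTTGCAT (the octamer bound by OCT1) and GGTCC (the core of the H4 element bound by HINFP). The H2AC14, H3C13, H2BC21, H2BC18 and H4C8 stretches are on the minus strand and the others on the plus strand of GRCh38.p14.
H3C13, chr1:149813694-149813793: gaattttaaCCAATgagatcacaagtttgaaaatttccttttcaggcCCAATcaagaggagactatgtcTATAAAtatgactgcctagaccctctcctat
H2BC21, chr1:149886683-149886782: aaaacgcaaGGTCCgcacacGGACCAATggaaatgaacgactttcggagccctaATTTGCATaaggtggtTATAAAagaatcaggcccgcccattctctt
H2BC18, chr1:149812371-149812470: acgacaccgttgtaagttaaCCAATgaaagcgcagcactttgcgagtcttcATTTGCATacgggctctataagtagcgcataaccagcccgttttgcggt
H2AC14, chr6:27814778-27814877: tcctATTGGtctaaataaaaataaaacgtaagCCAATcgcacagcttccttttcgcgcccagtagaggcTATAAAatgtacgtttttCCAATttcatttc
H1-4, chr6:26156229-26156328: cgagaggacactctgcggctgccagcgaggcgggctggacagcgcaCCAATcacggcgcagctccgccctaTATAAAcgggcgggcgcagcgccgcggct
H4C5, chr6:26204510-26204609: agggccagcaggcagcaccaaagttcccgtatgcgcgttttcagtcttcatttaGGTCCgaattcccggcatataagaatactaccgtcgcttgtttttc
H4C8, chr6:26285535-26285634: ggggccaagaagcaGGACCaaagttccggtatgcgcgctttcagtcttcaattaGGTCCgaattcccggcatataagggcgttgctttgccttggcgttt

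The classes did not share all of these motifs. RefSeq gave a promoter, from 250 bases before to 50 bases after the start, for 55 of the 59 genes. TATAAA was present in 39 of the 55 (70.9%), against 12% of 27305 RefSeq promoters of the same length. Matches on either strand were counted. Some promoters had TATAAA only far upstream on the antisense strand, as H2AC8 (-206), H2BC4 (-220), H2BC14 (-219) and H2BC17 (-214). CCAAT was found in 46 of 55 (83.6%), against 35.7% of all promoters, and these held every H2A, H2B and H3 promoter and only 3 of 11 H4 promoters. The octamer was seen in 22 of 55 (40%), against 1.8% of all promoters, in 8 of 11 H2A and 14 of 17 H2B genes and in no H1, H3 or H4 gene. All 8 H2A matches were on the antisense strand, at -208 to -118, while 13 H2B matches were on the sense strand and 1 was antisense. Whether an H2A match belonged to the promoter of a neighbouring gene was not tested. GGTCC was present in 10 of 11 H4 promoters (90.9%), against 46.1% of all promoters, and in 1 of 11 H2A promoters. A match shows only that these letters were in the window, and a GGTCC match on the opposite strand may share its last bases with CCAAT, as in H2BC21.

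**Figure D1:**
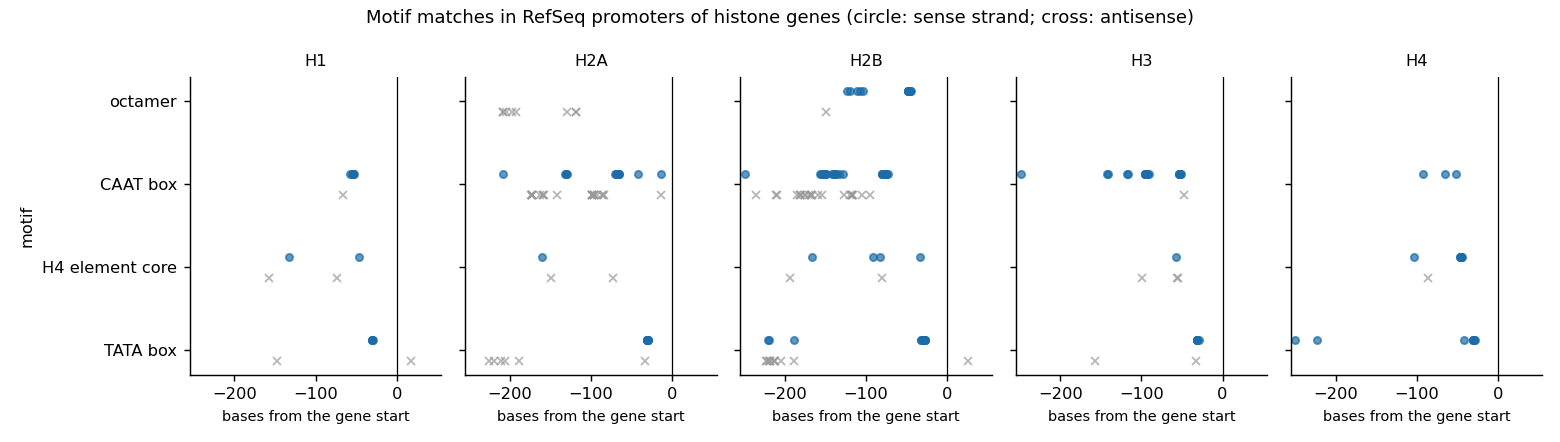
Matches to the 4 motifs in 55 RefSeq histone promoters, by class, plotted by distance from the gene start in bases (start base at 0), with circles for the sense strand and crosses for the antisense strand. Sense TATA boxes have a median of -31 in H2A and -30 in H2B, sense octamers in H2B a median of -49 and sense H4 element cores in H4 a median of -46.

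The arrays were close in scale, with medians of all table rows of 4.96 to 5.09 log2 units, and arrays correlated at 0.99 to 0.994 within a set and at 0.987 to 0.992 between sets. Of the 62 histone rows, 42 lay above the median row of the table (5.67) and 22 above the 95th percentile of 23 background rows (7.66). Within a set, histone rows varied with an SD of 0.017 to 0.594 log2 units (median 0.199). Of neuron markers, 3 of 11 lay above that percentile (MAP2, NEFM and SYT1), against 6 of 7 fibroblast or mesenchymal markers, VIM and COL1A1 among them. RBFOX3, which marks mature neurons, averaged 5.22 in the miR-140-3p set and 5.30 in the miR-126-5p set, against 5.36 in the control set, all under the median row. Of 8 markers of dividing cells, 1 lay above the percentile, PCNA, and MKI67, a nuclear protein of cycling cells, averaged 5.72 on the miR-140-3p arrays, 5.73 on the miR-126-5p arrays and 5.84 on the control arrays. The mean level of the markers of dividing cells was 6.24 to 6.64 on miR-140-3p arrays, 6.35 to 6.44 on miR-126-5p arrays and 6.40 to 6.59 on control arrays, so the sets overlapped. Fewer cells in S phase and less histone RNA per cell cannot be told apart in bulk RNA.

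Levels differed widely within each class, although brightness also depends on the probes and orders no genes. H4C5 was the brightest H4 row, with a mean of 16.00 over the 9 arrays, H2BC12 the brightest H2B row with 15.27, H1-4 the brightest H1 row with 14.48, H2AC20 the brightest H2A row with 12.99 and H3C13 the brightest H3 row with 9.24. The dimmest row of each class averaged 3.79 for H4, 2.42 for H2B, 4.68 for H1, 5.19 for H2A and 3.55 for H3.

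In miR-140-3p vs. control, more histone rows were lower than higher. At the thresholds used in the study, an unadjusted p under 0.05 with the means over 0.32 log2 units apart, 9 of 62 rows (14.5%) were lower, against 5.16% of all rows tested, and 0 were higher, against 3.35% of all rows. The 9 rows were H1-6, H2AC6, H2AC13, H2AC14, H2AC25, H2BC5, H2BC9, H3C11 and H4C7. The median difference of the 62 rows was -0.21 on the log2 scale, against -0.02 over all rows, and 49 rows were below 0 (79%), against 53.6% of all rows. All 3 miR-140-3p arrays lay below all 3 control arrays in 12 rows (19.4%), against 7.48% of all rows, and above them in 3 rows, against 4.72%. After Benjamini-Hochberg adjustment over all rows, limma called 0 histone rows, against 0.238% of all rows and 9 histone rows at an unadjusted p under 0.05 (8.52% of all rows), and the lowest adjusted p was 0.409, for H2AC14. The 9 lower and 0 higher rows became 14 lower without the first miR-140-3p array and 4 lower and 1 higher without the second. They became 14 lower and 1 higher without the first control array and 3 lower without the third.

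In miR-126-5p vs. control, 6 of the lower rows were H2B rows and 6 lay on chromosome 1. In all, 13 of 62 rows (21%) were lower at the unadjusted thresholds, against 6.83% of all rows, and 0 were higher, against 3.57%. The 13 rows were H1-3, H1-4, H2AC21, H2AC25, H2BC4, H2BC5, H2BC11, H2BC12, H2BC18, H2BC21, H3C13, H3C15 and the row labelled HIST1H4C. The median difference was -0.19, against -0.04 over all rows, with 45 rows below 0, against 56% of all rows. The sets did not overlap, with miR-126-5p lower, in 15 rows (24.2%), against 11% of all rows, and with it higher in 3, against 5.55%. With limma, 0 histone rows passed an adjusted p of 0.05, against 0.379% of all rows and 13 histone rows at an unadjusted p under 0.05 (10.4% of all rows), and the lowest adjusted p was 0.0872, for H3C13. The count of 13 was 6 without the first and 8 without the second miR-126-5p array, and 7 without the third control array. With the table quantile-normalized again, 9 rows were lower and 3 higher. Both comparisons use the same 3 control arrays.

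Rows above the median level held most of these calls. That level, 5.67, is below the background rows' 95th percentile of 7.66. Called rows that averaged between these levels over the 9 arrays were H1-6, H2AC25, H2BC9 and H3C11 for miR-140-3p. For miR-126-5p they were H2AC25 and H3C15. Of the 42 histone rows above the median level, 8 (19%) were lower with miR-140-3p, against 6.58% of all rows above it, and 12 (28.6%) with miR-126-5p, against 10.8%. Of the 20 dimmer histone rows, 1 was lower with each mimic, H4C7 with miR-140-3p and HIST1H4C with miR-126-5p. This was 5% of them in both comparisons, against 3.75% and 2.89% of all dimmer rows, so single calls there are near the background.

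**Figure D2:**
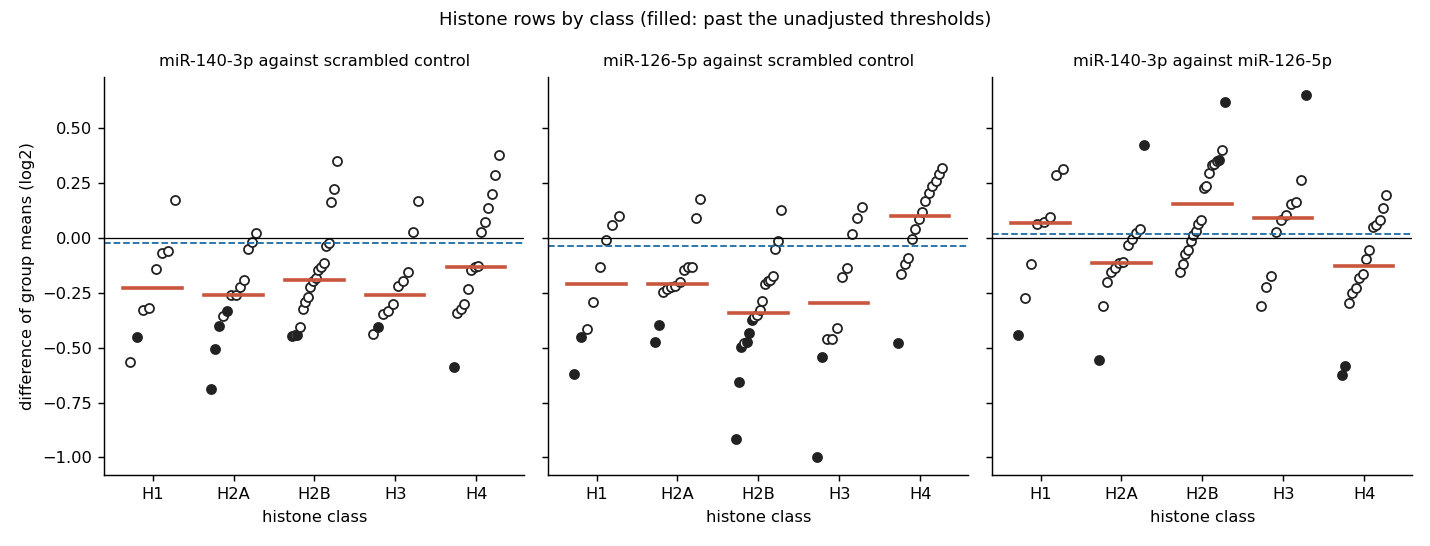
Difference of group means (log2) for each of the 62 histone rows, by class, in the 3 comparisons, with filled points for rows past the unadjusted thresholds, red bars for class medians and a dashed blue line for the median of all rows tested. H4 stands at a median of -0.13 for miR-140-3p and 0.10 for miR-126-5p against the scrambled control, and H2B at -0.19 and -0.34.

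Among linker histones, H1-3 and H1-4, which are made in most dividing cells, were the lower rows with miR-126-5p. H1-3 had 8.82, 8.77 and 8.50 log2 units on the miR-140-3p arrays, 8.48, 8.30 and 8.45 on the miR-126-5p arrays and 8.80, 8.98 and 9.30 on the control arrays. Its 3 miR-126-5p arrays lay below every other array. In limma the difference from the control was -0.62 (95% interval -0.999 to -0.237, adjusted p = 0.23) for miR-126-5p and -0.33 (-0.71 to 0.05, adjusted p = 0.641) for miR-140-3p. H1-4, the brightest H1 row, had 14.78, 14.40 and 14.43 on the miR-140-3p arrays, 14.09, 14.29 and 14.27 on the miR-126-5p arrays and 14.62, 14.60 and 14.79 on the control arrays. Again the miR-126-5p arrays were below all others, with a difference from the control of -0.45 (-0.81 to -0.10, limma adjusted p = 0.366), while the miR-140-3p and control arrays overlapped. H1-6, the H1 subtype of the testis, was lower with miR-140-3p, by a difference of -0.45 (-0.87 to -0.03, limma adjusted p = 0.552), at 5.61, 5.53 and 5.08, against 5.59, 6.14 and 5.83 with the scrambled control. Those 2 sets overlapped, since the first control array was below the first miR-140-3p array. The H1-6 row averaged 5.70, under the background rows' 95th percentile of 7.66, and the call was lost in 7 of 16 alternatives. H1-10, a linker histone known to be made outside S phase too, was taken in by the symbol rule and differed from the control by -0.07 for miR-140-3p and -0.13 for miR-126-5p.

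The H2A rows were the class with most calls in miR-140-3p vs. control, 4 of 12 lower (33.3%, against 5.16% of all rows). In miR-126-5p vs. control, 2 of 12 were lower (16.7%, against 6.83% of all rows). The count of 4 was 2 without the first or the second miR-140-3p array or without any one of the miR-126-5p arrays, and the count of 2 was 0 to 1 with any 1 array left out. With the table quantile-normalized again, the miR-126-5p count was 0 lower and 1 higher. H2AC14 had 12.03, 11.87 and 11.70 on the miR-140-3p arrays, 12.55, 11.97 and 12.74 on the miR-126-5p arrays and 12.25, 12.71 and 12.71 on the control arrays. The miR-140-3p arrays were below every control array, and the second miR-126-5p array lay among them. The difference from the control was -0.69 (95% interval -1.16 to -0.21, limma adjusted p = 0.409) for miR-140-3p and -0.13 (-0.61 to 0.34) for miR-126-5p. H2AC13 had 11.66, 11.52 and 11.70 on the miR-140-3p arrays, 11.83, 11.78 and 12.19 on the miR-126-5p arrays and 11.95, 12.14 and 12.31 on the control arrays. Here the miR-140-3p arrays lay below all 6 others, with a difference from the control of -0.51 (-0.88 to -0.13, limma adjusted p = 0.446). H2AC6, which also gives polyadenylated mRNA, had 12.28, 12.24 and 12.33 on the miR-140-3p arrays, 12.53, 12.53 and 12.39 on the miR-126-5p arrays and 12.61, 12.56 and 12.67 on the control arrays. Its sets were fully apart in that order, although the difference from the control passed the unadjusted thresholds for miR-140-3p (-0.33) and not for miR-126-5p (-0.13). The H2AC6 call was lost in 12 of 17 alternatives. H2AC25, the single H2A gene of a small cluster on chromosome 1, was lower with both mimics, at a mean of 7.39 ± 0.08 for miR-140-3p and 7.39 ± 0.13 for miR-126-5p, against 7.79 ± 0.29 with the scrambled control (SD, n = 3 each). The limma adjusted p was 0.569 for miR-140-3p and 0.47 for miR-126-5p, and the miR-126-5p and control sets overlapped. Each of these H2AC25 calls was lost in 12 of 16 alternatives. H2AC21, also on chromosome 1, had 8.58, 8.59 and 8.87 on the miR-140-3p arrays, 8.38, 8.15 and 8.25 on the miR-126-5p arrays and 9.02, 8.37 and 8.80 on the control arrays. The miR-126-5p difference of -0.47 passed the unadjusted thresholds although the second control array lay just under the first miR-126-5p array. H2AC20, the brightest H2A row, had mean levels of 12.94 ± 0.05 for miR-140-3p and 12.90 ± 0.13 for miR-126-5p, against 13.13 ± 0.07 with the scrambled control, and did not pass the thresholds.

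The H2B rows were lower mainly with miR-126-5p, where 6 of 18 passed the unadjusted thresholds (33.3%, against 6.83% of all rows). There 17 of 18 were below 0 and the median difference was -0.34. With miR-140-3p, 2 of 18 passed (11.1%, against 5.16% of all rows), 15 were below 0 and the median was -0.19. The count of 6 was 2 without the first miR-126-5p array and 3 without the third control array, and the count of 2 was 6 without the first and 0 without the second miR-140-3p array, and 1 without the second and 0 without the third control array. With the table quantile-normalized again, the count of 6 was 3. H2BC21 had 12.84, 12.20 and 12.28 on the miR-140-3p arrays, 11.40, 12.06 and 12.002 on the miR-126-5p arrays and 12.31, 12.66 and 13.23 on the control arrays. Its miR-126-5p arrays lay below all others and the control arrays spread over nearly a log2 unit. The difference from the control was -0.92 (95% interval -1.49 to -0.34, limma adjusted p = 0.245) for miR-126-5p and -0.29 (-0.87 to 0.29) for miR-140-3p. H2BC18, a neighbour of H3C13 on chromosome 1, had 13.32, 12.70 and 12.89 on the miR-140-3p arrays, 12.69, 12.61 and 12.61 on the miR-126-5p arrays and 13.35, 13.13 and 13.40 on the control arrays. The 3 miR-126-5p arrays were close together, and the highest of them was level with the lowest array of the other sets, with a difference from the control of -0.66 (-1.05 to -0.26, limma adjusted p = 0.221). With miR-140-3p the first array reached the control level and the difference was -0.32 (-0.72 to 0.07).

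Other H2B rows with calls lay on chromosome 6. H2BC12, the brightest, had 15.56, 15.08 and 15.38 on the miR-140-3p arrays, 14.88, 15.09 and 14.99 on the miR-126-5p arrays and 15.53, 15.32 and 15.61 on the control arrays, so the miR-126-5p arrays were below every control array (difference -0.50, limma adjusted p = 0.342). H2BC5 had 10.25, 10.19 and 10.20 on the miR-140-3p arrays, 10.36, 10.18 and 10.31 on the miR-126-5p arrays and 10.45, 10.55 and 10.99 on the control arrays. Both mimic sets were below all control arrays, with differences of -0.45 (limma adjusted p = 0.52) for miR-140-3p and -0.38 (adjusted p = 0.479) for miR-126-5p. The H2BC5 call was lost in 2 of 17 alternatives for miR-140-3p and in 11 of 17 for miR-126-5p. H2BC4 and H2BC11 were lower with miR-126-5p, with differences of -0.43 and -0.47 from the control, and H2BC9 with miR-140-3p, with a difference of -0.44. Their calls were lost in 5 of 17, 9 of 17 and 4 of 16 alternatives. The other 11 H2B rows passed in neither comparison with the control.

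Of the H3 rows, H3C13 had the largest difference among the 62 histone rows in miR-126-5p vs. control. Its values were 9.62, 9.21 and 9.21 on the miR-140-3p arrays, 8.34, 8.77 and 8.97 on the miR-126-5p arrays and 9.39, 9.88 and 9.79 on the control arrays. Every miR-126-5p array was below every array of the other sets, and 2 of 3 miR-140-3p arrays were below the control range. The difference from the control was -0.997 ± 0.211 (SE, 95% interval -1.45 to -0.54, limma adjusted p = 0.0872) for miR-126-5p and -0.35 ± 0.21 (-0.80 to 0.11, adjusted p = 0.688) for miR-140-3p. H3C15, a near copy of other H3 genes of the same cluster, had 6.68, 6.50 and 6.44 on the miR-140-3p arrays, 6.46, 6.16 and 6.69 on the miR-126-5p arrays and 6.58, 7.47 and 6.89 on the control arrays. Its control arrays covered a wide range, and the miR-126-5p difference of -0.54 passed the unadjusted thresholds with overlapping sets. H3C11 was lower with miR-140-3p, at 6.05, 6.01 and 5.91, against 6.37, 6.20 and 6.61 with the scrambled control, a difference of -0.40 (limma adjusted p = 0.532) with no overlap. H3C6 had means of 6.81 for miR-140-3p and 6.99 for miR-126-5p, against 6.97 with the scrambled control.

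**Figure D3:**
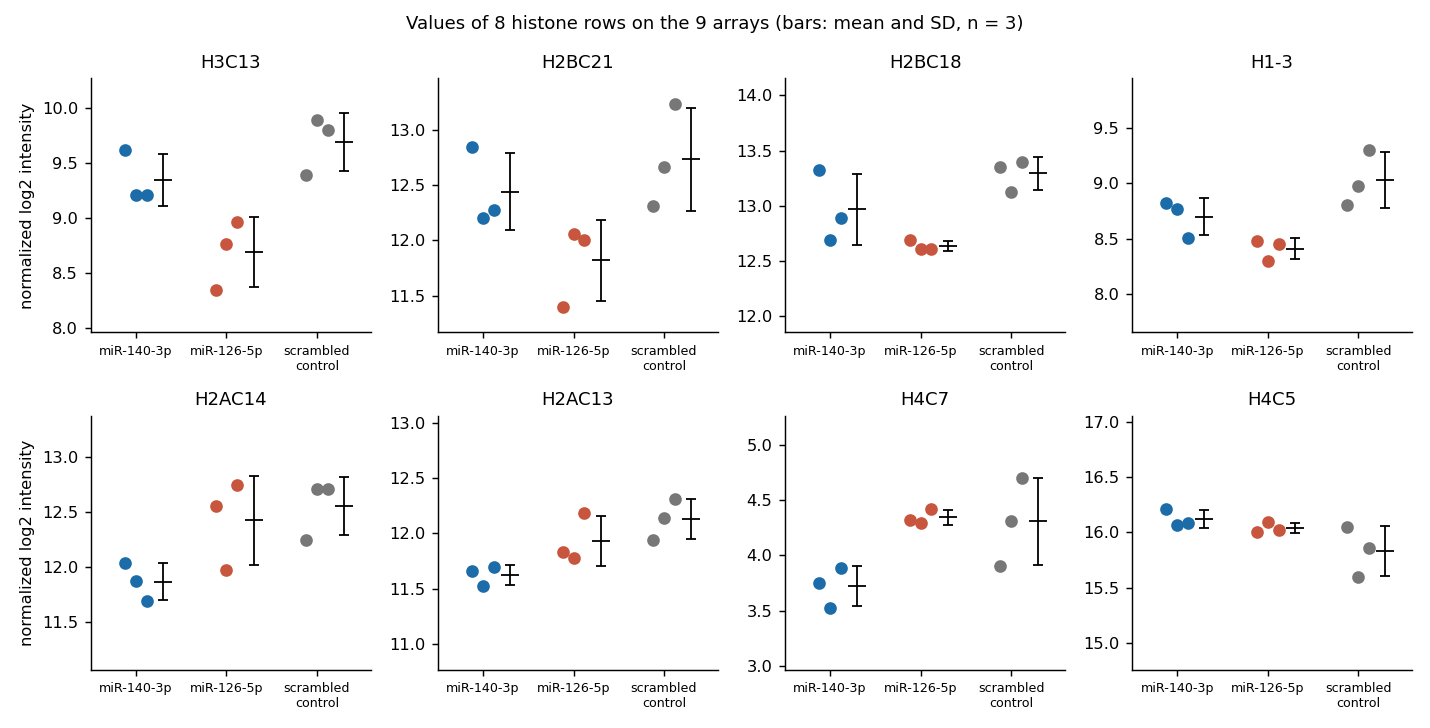
Normalized log2 intensity of 8 histone rows on the 9 arrays, by set, each panel spanning 2.3 log2 units, with 1 point per array and the mean and SD (n = 3) at the right of each set. The miR-126-5p points of H3C13, H2BC21 and H1-3 lie below all other points, those of H2BC18 reach the lowest miR-140-3p point, and the miR-140-3p points of H2AC13 and H4C7 are the lowest of their panels.

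The H4 rows had median differences from the control of -0.13 for miR-140-3p and 0.10 for miR-126-5p, and differences between classes were not tested. With miR-126-5p, 9 of 14 H4 rows were above 0, and of the 10 H4 rows brighter than the median row of the table, 0 passed the unadjusted thresholds with either mimic. Of all rows that bright, 6.58% were lower and 2.4% higher with miR-140-3p, and 10.8% lower and 3.17% higher with miR-126-5p. H4C5, the brightest histone row, had 16.21, 16.07 and 16.08 on the miR-140-3p arrays, 16.00, 16.09 and 16.02 on the miR-126-5p arrays and 16.05, 15.60 and 15.86 on the control arrays. Its miR-140-3p arrays were above every control array, with a difference of 0.29 (95% interval -0.06 to 0.64, limma adjusted p = 0.657). H4C8 had 13.29, 13.001 and 13.09 on the miR-140-3p arrays, 13.32, 13.32 and 13.29 on the miR-126-5p arrays and 13.33, 13.42 and 13.53 on the control arrays. Both mimic sets lay below the control range for this row, with differences of -0.30 (-0.63 to 0.03) and -0.12 (-0.45 to 0.21) that did not pass the thresholds. H4C7, a dim row in the range of the background rows, had 3.75, 3.52 and 3.88 on the miR-140-3p arrays, 4.32, 4.29 and 4.42 on the miR-126-5p arrays and 3.91, 4.31 and 4.70 on the control arrays. The miR-140-3p arrays were lowest, with a difference of -0.59 from the control (limma adjusted p = 0.457). The 3 histone rows with every miR-126-5p array above every control array, a share of the 62 below the 5.55% of all rows, were H4C6, H4C11 and H4C13, picked out after their values were seen, with differences of 0.29, 0.23 and 0.32 and limma adjusted p of 0.671, 0.649 and 0.602.

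The rows labelled HIST1H1C, HIST1H4C and HIST1H2BE had an older symbol and no Entrez identifier, and each stood beside another row for its gene. By the rows next to them in the table, they appeared to lie on the strand opposite to the gene (10 of 10 neighbours on the plus strand for HIST1H1C, against 4 of 4 on the minus strand for H1-2). HIST1H4C had 4.06, 4.31 and 3.93 on the miR-140-3p arrays, 4.29, 3.65 and 3.94 on the miR-126-5p arrays and 4.18, 4.49 and 4.65 on the control arrays, all in the background range. Its partner H4C3 was far brighter and differed from the control by 0.17 with miR-126-5p. Without the 3 rows, 9 of 59 rows were lower with miR-140-3p and 12 of 59 with miR-126-5p.

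**Figure D4:**
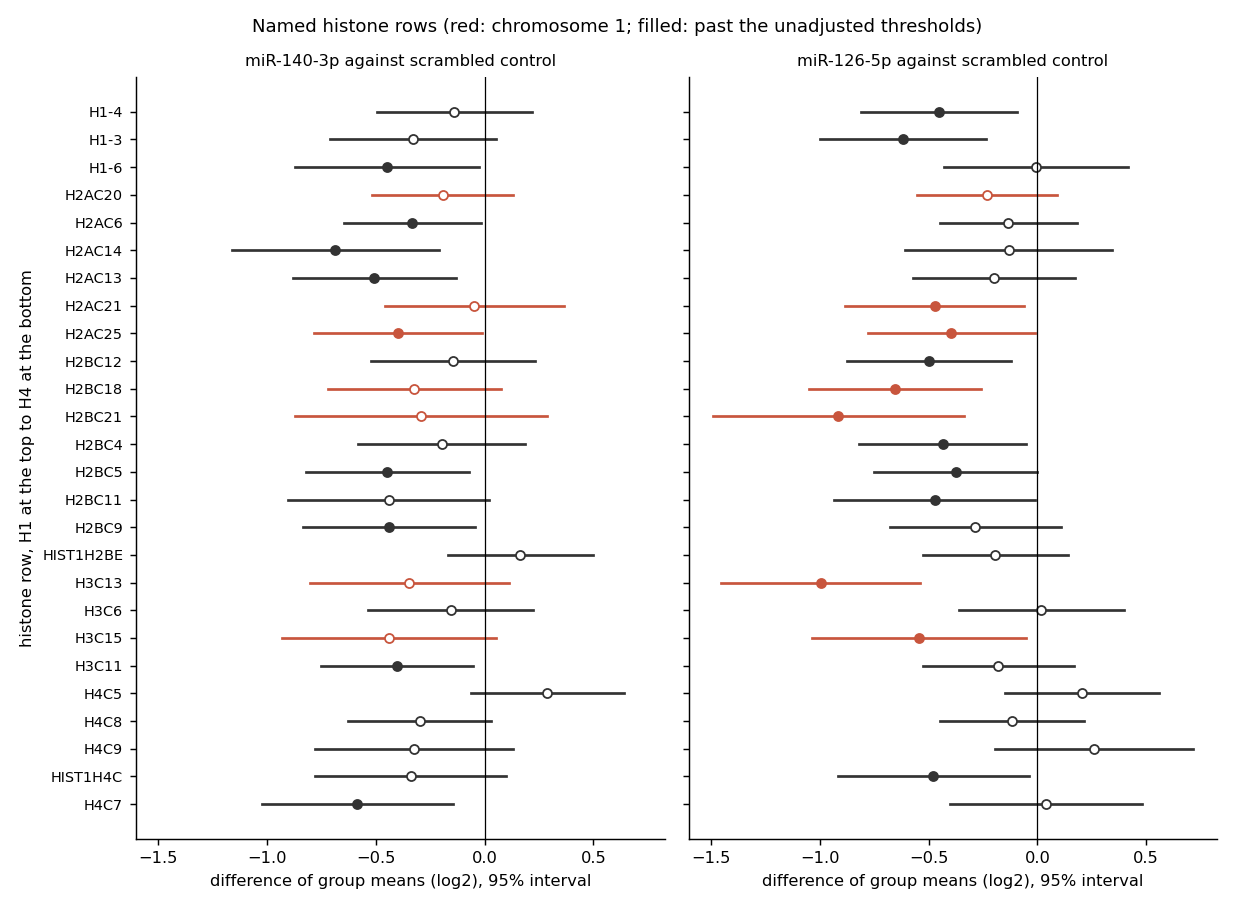
Difference from the scrambled control (log2) with its 95% limma interval for the 26 named histone rows, grouped by class from H1 at the top to H4 at the bottom, for miR-140-3p (left) and miR-126-5p (right), with chromosome 1 in red and filled points for rows past the unadjusted thresholds. Rows were named partly for passing these thresholds, so the share of filled points is set by that choice. Of all 8 chromosome 1 rows, 6 were lower with miR-126-5p and 1 with miR-140-3p, against 6.83% and 5.16% of all rows tested.

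By position, all 8 rows of chromosome 1 were below 0 with both mimics. With miR-126-5p, 6 of 8 passed the unadjusted thresholds (75%) and the median difference was -0.51, against 7 of 52 (13.5%) and -0.14 on chromosome 6. Of all rows tested, 6.83% were lower. Among rows above the median level, 6 of 7 (85.7%) were lower on chromosome 1 and 6 of 33 (18.2%) on chromosome 6. Of all rows above that level, 10.8% were lower. No H1 or H4 row lay on chromosome 1, so position and class were not separated here. With miR-140-3p, 1 of 8 passed on chromosome 1 with a median of -0.34, and 8 of 52 (15.4%) on chromosome 6 with a median of -0.20. Of all rows tested, 5.16% were lower with miR-140-3p. The mean level of the 8 chromosome 1 rows was 9.62, 9.33 and 9.48 on miR-140-3p arrays, 9.13, 9.18 and 9.33 on miR-126-5p arrays, and 9.66, 9.82 and 9.87 on control arrays. Every array of both mimics was thus below every control array, and 1 miR-126-5p array reached the lowest miR-140-3p array. Leaving out 1 array at a time gave 4 to 5 rows of 8 past the thresholds with miR-126-5p. A count of 4 came without any one of the miR-126-5p arrays or without the second control array, and the median ranged from -0.57 to -0.43. With the table quantile-normalized again, 4 of 8 passed. On chromosome 6 the 7 rows with miR-126-5p became 2 without the first miR-126-5p or the third control array and 4 without the second miR-126-5p array, and the median without the third control array was -0.09. The 8 rows with miR-140-3p became 13 without the first and 4 without the second miR-140-3p array, 5 without the third, and 2 without the third control array. The single chromosome 1 row with miR-140-3p became 3 without the first control array and 0 without the second miR-140-3p array, the second control array or any one of the miR-126-5p arrays. No test of the difference between chromosomes was run.

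Some genes of other kinds between the chromosome 6 histone genes were lower too, most of them of the butyrophilin (BTN) family. Of 17 protein-coding genes there, 5 were lower (29.4%) and 1 higher (SLC17A4) in miR-140-3p vs. control, against 5.16% and 3.35% of all rows. In miR-126-5p vs. control, 6 were lower (35.3%) and 0 higher, against 6.83% and 3.57%. TRIM38, BTN3A1, BTN3A2 and BTN3A3 were lower with both mimics, HMGN4 with miR-140-3p only, and BTN2A1 and BTN2A2 with miR-126-5p only. The shares of lower genes were above those of the histone rows of the chromosome, with medians over the 17 genes of -0.22 and -0.28. With limma, 3 of the 17 passed an adjusted p of 0.05 with miR-126-5p and 0 with miR-140-3p. These 3, named after their values were seen, were TRIM38, BTN3A2 and BTN3A1, a ubiquitin ligase and a pair of butyrophilins. TRIM38 had 10.60, 10.66 and 10.99 on the miR-140-3p arrays, 10.50, 10.68 and 10.44 on the miR-126-5p arrays and 11.70, 11.46 and 12.15 on the control arrays, so both mimic sets lay below the control set (differences -1.02, limma adjusted p = 0.0808, and -1.23, adjusted p = 0.0161). The difference between these genes and the histone rows was not tested, and alternatives were not run for these genes.

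**Figure D5:**
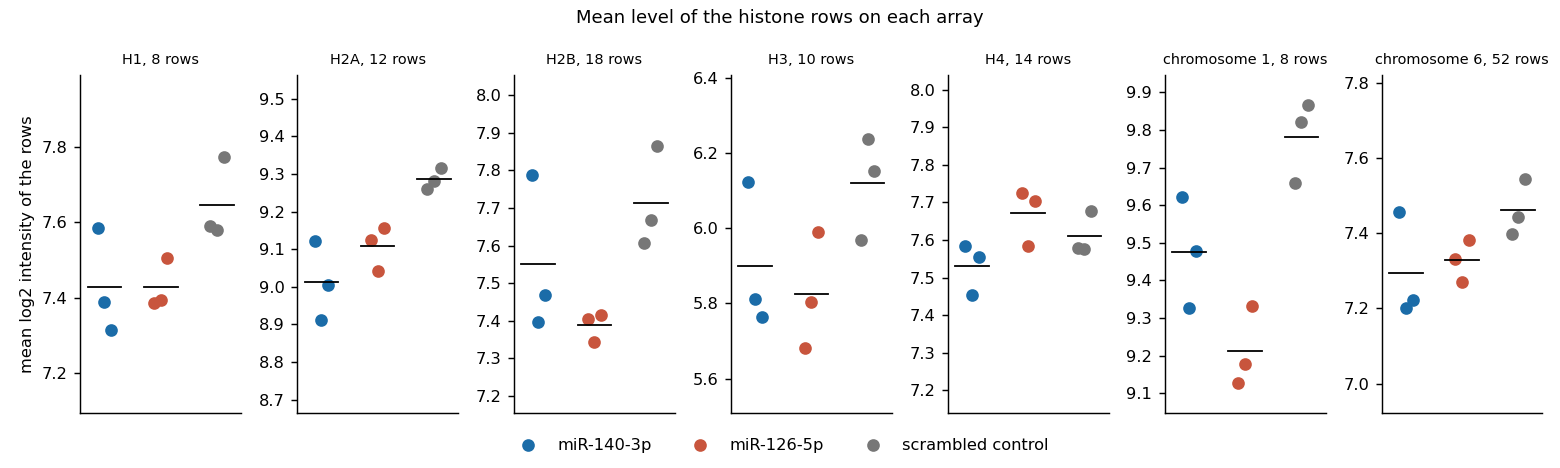
Mean log2 intensity of the histone rows of each class, of chromosome 1 and of chromosome 6 on each of the 9 arrays, by set, with 1 point per array, a line at the mean of the set and panels spanning 0.9 log2 units. For H2A the control arrays (9.26 to 9.32) lie above all arrays of both mimics, and for chromosome 1 the 3 control arrays (9.66 to 9.87) do so too. In the panels for H1, H2B, H3, H4 and chromosome 6, the first miR-140-3p array lies above at least 1 control array.

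In miR-140-3p vs. miR-126-5p, the histone rows had no common direction. At the unadjusted thresholds 4 of 62 rows were lower with miR-140-3p (6.45%, against 3.99% of all rows) and 4 were higher (6.45%, against 5.07%), and the median difference was 0.03, against 0.02 over all rows. With the table quantile-normalized again, 6 were lower and 3 higher. The sets did not overlap in 8 rows with miR-140-3p lower, against 6.58% of all rows, and in 8 with it higher, against 9.12%. The lower rows were H1-6, H2AC14, H4C7 and H4C9, and the higher rows H2AC21, H2BC21, H3C13 and HIST1H2BE. With limma, 0 rows passed an adjusted p of 0.05, against 0% of all rows and 8 histone rows at an unadjusted p under 0.05 (9.06% of all rows), with a lowest adjusted p of 0.459 among histone rows. H3C13 was 0.65 higher with miR-140-3p (95% interval 0.19 to 1.11) and H2BC21 was 0.62 higher (0.04 to 1.20), in both cases with every miR-140-3p array above every miR-126-5p array. H4C7 differed by -0.63 (-1.07 to -0.19) with no overlap. H4C9 had 6.70, 6.41 and 6.09 with miR-140-3p, against 6.95, 6.71 and 7.30 with miR-126-5p, a difference of -0.58 (-1.04 to -0.13) with no overlap. The H4C9 row averaged 6.70 over the 9 arrays, under the background rows' 95th percentile of 7.66. HIST1H2BE, at 2.54, 2.59 and 2.64 with miR-140-3p, against 2.33, 2.30 and 2.08 with miR-126-5p, was below the background rows' 95th percentile on all these arrays. Of the 8 rows on chromosome 1, 3 were higher with miR-140-3p (37.5%, against 5.07% of all rows) and 0 lower (against 3.99%). The 3 became 1 without the first miR-126-5p array and 2 to 3 without any other array. With the table quantile-normalized again, 2 were higher. The same miR-126-5p arrays gave the chromosome 1 calls against the control.

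Genes that transcribe and process histone mRNA were read from lists of the same pathway, and 0 of their members passed the adjusted p in limma. Of 13 genes for transcription of the histone loci, 6 lay above the background rows' 95th percentile. At the unadjusted thresholds with miR-140-3p, 0 were lower and 1 was higher (7.69%), against 5.16% and 3.35% of all rows. With miR-126-5p, 2 were lower (15.4%) and 1 higher (7.69%), against 6.83% and 3.57%. The median difference of this list, dim rows included, was -0.03 for miR-140-3p and -0.33 for miR-126-5p. The histone rows had -0.21 and -0.19. With miR-126-5p, 10 of the 13 genes were below 0 (76.9%), against 56% of all rows. HINFP had 10.50, 9.78 and 10.20 on the miR-140-3p arrays, 9.62, 9.60 and 9.51 on the miR-126-5p arrays and 9.97, 10.08 and 10.11 on the control arrays, so its miR-126-5p arrays were lowest (difference from control -0.48, limma adjusted p = 0.398). CDK2 had 8.95, 8.62 and 8.61 on the miR-140-3p arrays, 8.12, 8.33 and 8.15 on the miR-126-5p arrays and 9.16, 8.36 and 8.93 on the control arrays, a difference of -0.62 for miR-126-5p (adjusted p = 0.325). CCNA2, the cyclin that partners CDK2 in S phase, passed the unadjusted thresholds with both mimics, higher by 0.70 for miR-140-3p (limma adjusted p = 0.387) and 0.49 for miR-126-5p (adjusted p = 0.454). The CCNA2 row averaged 6.97, under the background rows' 95th percentile, and its miR-140-3p and control sets overlapped. NPAT differed from the control by -0.08 for miR-140-3p and 0.14 for miR-126-5p.

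Of 24 genes for stem-loop binding and 3′ end processing, 1 was lower for miR-140-3p and 1 for miR-126-5p (4.17% each), below the 5.16% and 6.83% of all rows. These were CASP8AP2 (FLASH), which joins the processing complex, with a difference of -0.53 for miR-140-3p, and ZNF473, a zinc finger protein of the U7 snRNP, with -0.44 for miR-126-5p. SLBP averaged 10.31 for miR-140-3p and 10.17 for miR-126-5p, against 10.13 with the scrambled control. The median difference of this list was -0.13 for miR-140-3p and -0.19 for miR-126-5p. Among 22 histone chaperones and assembly factors, HJURP, the chaperone of CENPA, was 0.63 higher with miR-140-3p (limma adjusted p = 0.489) and 0.55 higher with miR-126-5p (adjusted p = 0.43), and IPO4, an importin of histones, differed by -0.79 with miR-126-5p.

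Of 32 genes of S phase, 10 lay above the background rows' percentile of 7.66. The median difference of this list, dim rows included, was -0.05 for miR-140-3p and -0.06 for miR-126-5p. With miR-140-3p, 0 were lower and 2 higher (RRM1 and UHRF1, 6.25%), against 5.16% and 3.35% of all rows. With miR-126-5p, 2 were lower (MCM5 and GMNN, 6.25%) and 1 higher (RRM1, 3.12%), against 6.83% and 3.57%. RRM1, the large subunit of ribonucleotide reductase, had 11.75, 11.45 and 11.34 on the miR-140-3p arrays, 11.27, 11.45 and 11.33 on the miR-126-5p arrays and 11.06, 10.74 and 10.84 on the control arrays. Both mimic sets were above all control arrays, with differences of 0.63 (limma adjusted p = 0.29) and 0.47 (adjusted p = 0.358). Of 18 genes of mitosis, 3 lay above that percentile. With miR-140-3p, 1 was lower and 1 higher (5.56% each, against 5.16% and 3.35% of all rows). With miR-126-5p, 1 was lower (5.56%, against 6.83%). The part of cell cycle changes in the histone values was not tested.

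Histone genes that are made outside S phase as well, H1-10 among them, gave 1 lower row of 15 for miR-140-3p (6.67%, against 5.16% of all rows) and 2 for miR-126-5p (13.3%, against 6.83%). H2AJ, an H2A variant with a polyadenylated mRNA, had 8.30, 7.99 and 7.82 on the miR-140-3p arrays, 8.08, 8.06 and 7.85 on the miR-126-5p arrays and 8.70, 8.28 and 8.71 on the control arrays. Its differences were -0.52 (limma adjusted p = 0.473) for miR-140-3p and -0.57 (adjusted p = 0.311) for miR-126-5p, with the first miR-140-3p array just above the lowest control array and every miR-126-5p array below it. The list had a median difference of -0.12 for miR-140-3p and -0.22 for miR-126-5p.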

How the data were processed

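RNA of 9 HCN-2 samples (3 per mimic) was hybridized to Affymetrix Clariom arrays. The deposited design text names the Clariom D array, and the study's methods another array of the Clariom family. Per the labels, RNA went through 2 rounds of amplification, and the labels name a trinucleotide mRNA kit, whereas the study's methods name WT-Plus kits. Which was used was not settled, and it bears on how mRNA without a poly(A) tail is captured. The authors deposited normalized log2 values, 1 per row and array. Partek, RMA and the Affymetrix Expression Console are named in the processing notes of the submitters, and their versions and the genome build are not given in the sources used here. RMA removes shifts shared by most rows. Of 138745 rows, the 36176 with 1 gene symbol were tested, 1119 rows with several symbols and 31 control rows were not used in the tests, and 8 rows that name a histone gene with other genes and 14 pseudogene rows were left out of the histone rows. Symbols were updated through RefSeq (GRCh38.p14), 59 rows by Entrez identifier and 3 by older symbol.

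All 9 arrays entered 1 limma fit (3.58.1, R 4.3.3, lmFit and eBayes), with 3 contrasts and Benjamini-Hochberg adjustment over 36176 rows. The pipeline was tested on simulated data. The labels number the arrays but do not say that they are separate cultures, so p-values measure the spread between these arrays. No scan date or slide was given in the sources used here, and 3 arrays a set limit the precision. Named rows were those past the unadjusted thresholds in any comparison and the brightest rows of each class. The histone rows, the pathway lists and the marker lists were chosen with earlier results of these data known. Alternatives changed the variance model, the arrays in the fit, the scaling, the rows tested and the replicate block. The clinical samples and cell assays of the study were not analysed here.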

Additional observations from a re-analysis of the deposited data

How the results depend on the processing

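In miR-140-3p vs. control, the 9 histone rows past the unadjusted thresholds became 5, of 22, among rows above the background rows. Leaving out 1 array at a time gave 3 to 15 rows. The count was 14 without the first and 5 (4 lower, 1 higher) without the second miR-140-3p array, and 15 (14 lower, 1 higher) without the first and 3 without the third control array. In miR-126-5p vs. control, the 13 rows became 6 to 13, with 6 without the first and 8 without the second miR-126-5p array and 7 without the third control array. The adjusted count of 0 became 1 (H3C13) with an intensity trend and robust estimation, with rows above the median level and with rows above the background rows, where its limma adjusted p was lowest at 0.0202. It was 0 to 1 with 1 array left out, with 1 again H3C13 without the first control array. In miR-140-3p vs. miR-126-5p, the 8 rows became 5 with every row of the table, 5 with rows above the background rows and 3 to 9 with 1 array left out, with 3 without the third miR-140-3p array, 4 without the first, 5 without the second and 3 without the third miR-126-5p array. The median differences kept their sign when 1 array was left out, at -0.31 to -0.16 for miR-140-3p and -0.22 to -0.12 for miR-126-5p against the control, while that of miR-140-3p against miR-126-5p ranged from -0.10 to 0.08. Of 30 calls of named rows, 7 were kept in every alternative that tested the row: H2AC13 and H2AC14 in miR-140-3p vs. control, H1-3, H2BC18, H2BC21 and H3C13 in miR-126-5p vs. control, and H4C7 in miR-140-3p vs. miR-126-5p. 0 calls were reversed. Where calls were lost, the cause was not tested. Same-numbered arrays deviated together with correlations of -0.06 to 0.11 over all rows and -0.11 to 0.365 over the histone rows, with not every pair above 0.1, so the numbers were not taken to pair arrays. With the replicate block, 10, 10 and 7 rows passed the unadjusted thresholds in the 3 comparisons, and the adjusted counts stayed at 0. Leaving out the H1-10 row, chosen after seeing the data, left 9, 13 and 8 rows.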
